A study of Drosophila melanogaster with 3 samples.

Results

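The genes described here code for structural proteins of the insect cuticle in Drosophila melanogaster. They are the protein coding genes whose symbols in the release 6 (dm6) annotation begin with Cpr and a number, Lcp, Ccp84 or Twdl. The rule found 117 of 13968 protein coding genes, of which 70 were Cpr, 15 Lcp, 7 Ccp84 and 25 Twdl genes. Of these, 85 lay in 15 clusters of at least 3 genes spaced no more than 20 kb apart, and 32 lay outside them. The rule used names only and no measured value.

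The study mapped by chromatin immunoprecipitation and sequencing (ChIP-seq) where CG2120, a predicted zinc finger protein, sits on the genome. All 3 samples were biological replicates of 1 group, whole embryos 18 to 24 h old of a transgenic line that stably expresses CG2120 with enhanced GFP at its C terminus. The antibody was against GFP, and there was no second genotype, age or tissue. The line is an insertion of 1 tagged construct, and the whole animal was used, so a site occupied in a few cells and a site occupied weakly in many cells cannot be told apart. Peak lists hold no expression values, so the labelled tissue could not be checked against markers.

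Insect cuticle is built from chitin fibres and proteins that pack between them, and the embryo lays down the larval cuticle late in its development. Most Cpr, Lcp and Ccp84 proteins carry the Rebers and Riddiford sequence, which binds chitin. Lcp stands for larval cuticle protein, and the Ccp84 genes form a cluster inside the Antennapedia complex of homeotic genes. Twdl genes code for the Tweedle proteins, which lack that sequence, and Tweedle mutations change the shape of the body. Such genes often stand in tandem arrays that arose by duplication, and are expressed in the cells that secrete cuticle.

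The authors deposited a peak list for each replicate, with 30000, 30000 and 27353 peaks in replicates 1, 2 and 3. A pooled list held 30000 peaks, and an optimal list of 8340 peaks was the same as the strongest 8340 of the pooled list. The replicate and pooled lists hold background beside peaks, per the labels, so a weak summit there is not a call of binding. The position of a peak is its summit, and its signal is the authors' own strength value, which is comparable only within a list. How deeply each sample was sequenced cannot be read from the lists, which hold no read numbers. To set the replicates on an equal footing, the strongest 8340 peaks of each were also used.

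The promoters of the cuticle protein genes were almost free of CG2120 peaks. A gene counted as having a promoter summit where one lay within 500 bp of any of its annotated transcription start sites (TSSs). In the optimal list this held for 1 of 117 cuticle protein genes, 0.855% (exact 95% interval 0.0216% to 4.67%), against 34% of all protein coding genes. The 1 gene was Lcp9, and no Cpr, Ccp84 or Twdl gene had such a summit. Intervals here cover counting error only, and neighbouring genes are not independent draws.

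Each replicate gave the same picture in its own strongest 8340 peaks. Replicate 1 held a promoter summit for 1 cuticle protein gene, again Lcp9, against 33.6% of all genes. Replicate 2 held none of 117, against 34.3% of all genes. A count of 0 allows a share of up to 2.56% by the limit of 3 counts, and up to 3.10% by the exact 95% interval. Replicate 3 also held none of 117, against 33% of all genes. Over the replicates the share was 0.285% ± 0.493 for cuticle protein genes and 33.7% ± 0.645 for all genes (SD, n = 3). The gap between these shares was many times the spread between replicates. With 1 group there is nothing to compare by a test over samples, so no p-value is given anywhere here.

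Lcp9 (FBgn0025578, dm6, 2R:24779979 to 24780428, minus strand) is a larval cuticle protein gene that stands alone between the genes CG3594 and egg. Its summit lay at 2R:24780891, 463 bp upstream of its TSS, in a peak from 24780666 to 24781115 with signal 163 and rank 6226 in the pooled list. That summit was 26 bp from the TSS of CG3594, so the nearest start site was not that of Lcp9. A further optimal summit, with signal 150 and rank 6821, lay 528 bp downstream of the Lcp9 TSS and 1 bp from that of egg, which codes for the histone methyltransferase eggless. Within replicates the upstream summit ranked 5445 with signal 60.7 in replicate 1 and 9006 with signal 50.3 in replicate 2, and replicate 3 had no summit within 100 bp of it. The summit at egg ranked 6888 and 7127 in replicates 1 and 2, and was likewise not found in replicate 3. Counting only summits whose nearest TSS belongs to a cuticle protein gene, a rule chosen after seeing the data, left 0 of 117 genes. The count was also 0 when any 1 replicate was left out, because the summit stood among the strongest peaks of replicate 1 only.

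**Figure D1:**
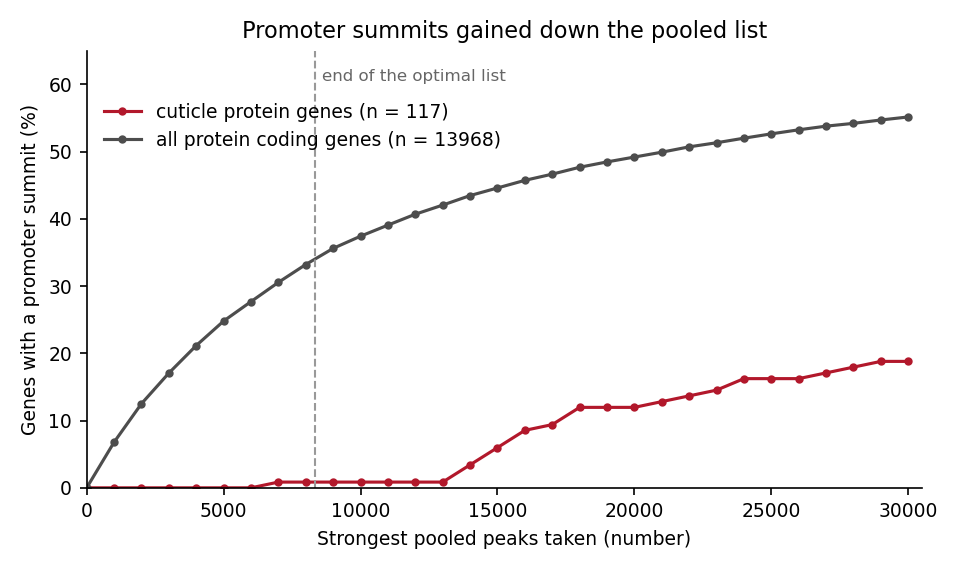
Share of genes with a promoter summit (vertical axis, %) as more of the pooled list is taken from its strongest peak down (horizontal axis, number of peaks), for the 117 cuticle protein genes and all 13968 protein coding genes. At the end of the optimal list the cuticle line stands at 0.855%, or 1 gene, and the line for all genes at 34%, and the next cuticle protein gene enters at rank 13108.

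The pooled list reaches deeper, and a summit of any strength in it stood at 22 of 117 cuticle protein promoters, 18.8% (exact 95% interval 12.2% to 27.1%), against 55.2% of all genes. Lcp9 was one of the 22, and the other 21 had summits outside the optimal list. Of the genes without an optimal promoter summit, such a weaker summit stood at 21 of 116 cuticle protein genes, 18.1%, against 32.1% of the 9221 such genes overall. The plot of shares down the pooled list shows where they came in. The strongest 15000 pooled peaks held a promoter summit for 7 cuticle protein genes, 5.98%, against 44.6% of all genes. The strongest 20000 held one for 14 of 117, against 49.2% of all genes. No pooled summit at all was found at 95 cuticle protein promoters, 81.2%, against 44.8% of all genes. The weaker summits of the 21 genes, taking the strongest of each gene, had signals from 31.4 to 75.5, below the lowest signal of the optimal list, 123. Their −log10 q values ran from 0.188 to 1.70, where the optimal list ends at 3.52.

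In the full list of each replicate the shares were of the same order. Replicate 1 had 16 cuticle protein genes with a summit, 13.7%, against 55.4% of all genes. Replicates 2 and 3 had 19 each, 16.2%, against 55.8% and 52.2% of all genes. The mean was 15.4% ± 1.48 for cuticle protein genes and 54.5% ± 1.97 for all genes (SD, n = 3). A summit in at least 1 replicate's full list or in the pooled list was found for 30 genes, and 87 had none in any list. All genes were not counted in this combined way, so these counts have no background beside them. Of the 22 genes in the pooled list, 7 had a promoter summit in all 3 full lists, not always the same summit. For 6 of the 22, a pooled promoter summit had a summit within 100 bp in all 3 full lists. Neither count was made for all genes.

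The strongest of these weak summits stood at genes of the 78C, 67F and Tweedle arrays. Cpr78Cc (FBgn0037069, 3L:21300580 to 21301171) had a pooled signal of 75.5 at rank 13108, at position -366 from its TSS (negative is upstream). Within 100 bp of it, replicates 1, 2 and 3 had a summit at ranks 11674, 16278 and 26838, so its place in the lists varied widely. Its neighbour Cpr78Cb had a pooled signal of 72.7 at rank 13560, with the same summit at ranks 11645 and 10858 in replicates 2 and 3 and none within 100 bp in replicate 1. Cpr67Fb had a pooled signal of 70.8 at rank 13880, and the same summit ranked 18663, 15220 and 11340 in replicates 1, 2 and 3. That weak summit, at 3L:10893681, lay inside an optimal peak from 10893242 to 10893691. The summit of the optimal peak lay 706 bp upstream of the TSS, outside the promoter window, so the weak summit is not a separate site. TwdlN (FBgn0039441, 3R:26631869 to 26632956) had a pooled signal of 67.4 at rank 14452, and the same summit ranked 12821, 17068 and 22195. None of these replicate ranks reached the strongest 8340.

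**Figure D2:**
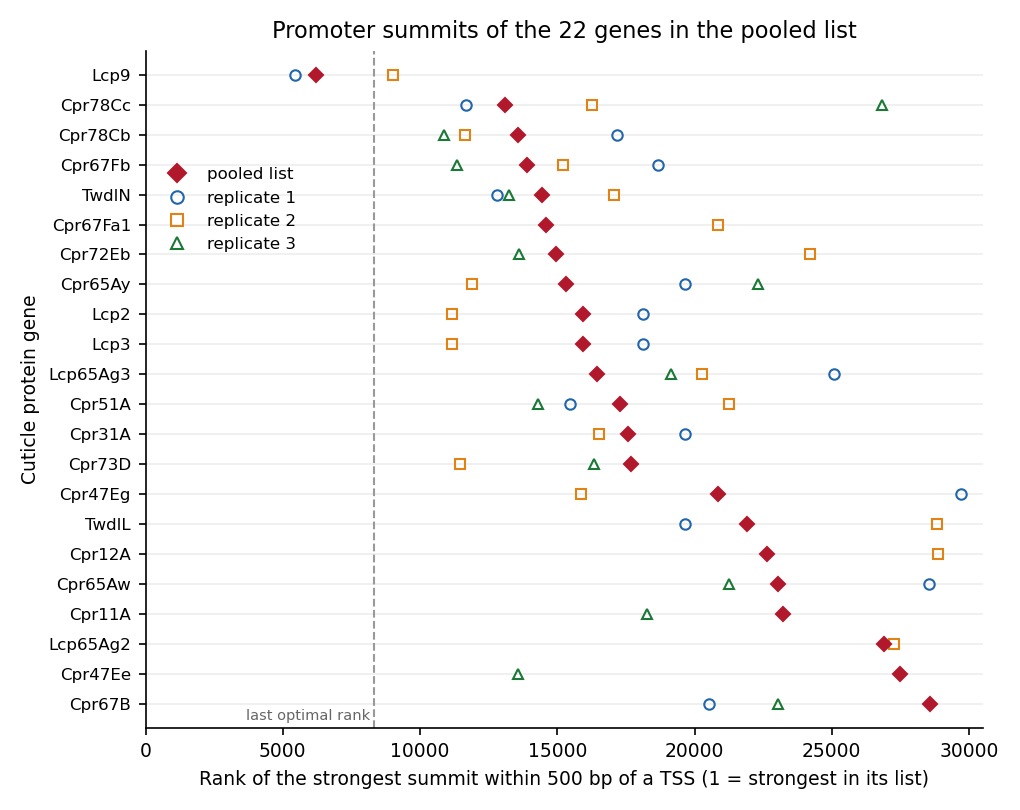
Rank of the strongest summit within 500 bp of a TSS (horizontal axis, 1 is the strongest of a list) for the 22 cuticle protein genes with one in the pooled list (vertical axis, ordered by pooled rank), in the pooled list and in each replicate's full list, where it need not be the same summit. Lcp9 is the 1 gene left of the dashed line at rank 8340 in the pooled list and in replicate 1, and the other 21 begin with Cpr78Cc at rank 13108.

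By family, a pooled summit stood at 15 of 70 Cpr promoters (21.4%), 5 of 15 Lcp promoters (33.3%), 2 of 25 Twdl promoters (8%) and 0 of 7 Ccp84 promoters. Lcp2 and Lcp3 are divergent neighbours that share 1 such summit, at rank 15921. The other Lcp genes were Lcp9, Lcp65Ag3 at rank 16438 and Lcp65Ag2 at rank 26913. The Twdl genes were TwdlN and TwdlL, the last at rank 21921. Taking the strongest summit of each gene, with that shared summit counted once, the 21 genes outside the optimal list had 20 distinct summits. Of these, 13 lay upstream of the TSS and 7 downstream. Each of the 20 had the TSS of a cuticle protein gene as its nearest. Further, weaker pooled summits at some of these promoters were not counted here. With a window of 200 bp the pooled count was 8, 6.84%, against 43.5% of all genes. With 1000 bp it was 35, 29.9%, against 60.9% of all genes. For 14 of the 22 genes every pooled promoter summit thus lay beyond 200 bp.

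The cuticle protein genes also lay far from the nearest peak. Their median distance from a TSS to the nearest optimal summit was 13229 bp (quartiles 6065 and 20073 bp), against 2872 bp for all protein coding genes (quartiles 183 and 10170 bp). In the strongest peaks of replicates 1, 2 and 3 the medians were 14095, 14604 and 10116 bp for cuticle protein genes, and 2942, 2844 and 2943 bp for all genes. Their means were 12938 ± 2457 bp and 2910 ± 56.9 bp (SD, n = 3). Within 2000 bp of an optimal summit there were 7 cuticle protein genes, 5.98%, against 44.4% of all genes. Within 10000 bp there were 44, 37.6%, against 74.5%. At 20000 bp the shares were nearer, 73.5% for cuticle protein genes and 87.4% for all genes.

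Distance differed by family and by place. Lcp genes had a median of 27369 bp, Ccp84 genes 16345 bp, Cpr genes 13112.5 bp and Twdl genes 11370 bp. Most Lcp genes lie in a single array, Lcp65Ag3 to Cpr65Az, at 22739 to 38770 bp, so their median describes that array. Cpr genes of the same array lay at 13229 to 37286 bp. The remaining Lcp genes, Lcp1 to Lcp4 and Lcp9, lay at 463 to 13513 bp. Genes in clusters had a median of 14956 bp and those outside 9868.5 bp. After Lcp9, the genes nearest to an optimal summit were Cpr67Fb at 706 bp, Cpr73D at 730 bp, Cpr47Eg at 1345 bp, Cpr51A at 1501 bp and Cpr76Ba at 1602 bp. For Cpr47Eg that summit lay 65 bp from the TSS of Vhl, and for Cpr73D 480 bp from a TSS of Ogdh. For Cpr51A it lay 320 bp from the TSS of CG30197, so each of these was at the promoter of another gene. The farthest were Cpr50Ca at 52349 bp, Cpr49Ab at 40666 bp and Cpr49Aa at 38852 bp. Genes share neighbourhoods, so their distances are a description and not replicate measurements.

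**Figure D3:**
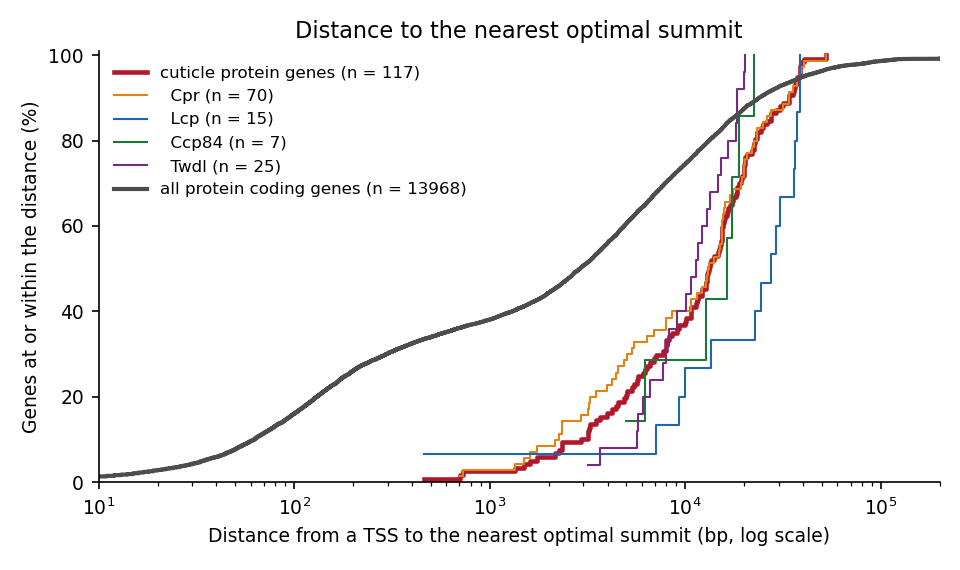
Share of genes (vertical axis, %) at or within a distance from a TSS to the nearest optimal summit (horizontal axis, bp on a log scale), for the 117 cuticle protein genes, each of the 4 families and all 13968 protein coding genes. The cuticle line lies right of the line for all genes, with medians of 13229 and 2872 bp. Lcp genes have the largest median of the families, and most of them lie in a single array.

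Few peaks had a cuticle protein gene as their nearest neighbour. Of 8340 optimal summits, 11 (0.132%) were nearest to the TSS of a cuticle protein gene, 10 genes in all, where these genes are 0.838% of protein coding genes. None of the 11 lay within 500 bp, against 49.4% of all optimal summits. Their distances ran from 706 to 6730 bp with a median of 3179 bp, against 522.5 bp for all. Their median signal was 171, against 236 for all optimal peaks, and the highest was 379 at Cpr76Ba. Of the 11, 7 had a summit within 100 bp among the strongest peaks of all 3 replicates. Over the whole optimal list, 5869 of 8340 peaks were found in all 3 replicates, and a difference between these shares was not tested.

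The summits that carry this result are given with 30 bases on either side, on the plus strand. That at Cpr76Ba lay 1602 bp downstream of its TSS (chr3L:19516700-19516760) and ranked 2049, 2032 and 4338 in replicates 1, 2 and 3. That at Cpr65Ec lay 2155 bp upstream (chr3L:7091019-7091079), inside its cluster, and ranked 6259, 7689 and 5266. That at Cpr67Fb lay 706 bp upstream (chr3L:10893437-10893497), and ranked 7900, 8366 and 10282. The first 2 were thus among the strongest 8340 of every replicate and the third in replicate 1 only.
Cpr76Ba: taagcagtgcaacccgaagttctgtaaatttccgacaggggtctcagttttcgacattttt
Cpr65Ec: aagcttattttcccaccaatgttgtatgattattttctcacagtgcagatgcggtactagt
Cpr67Fb: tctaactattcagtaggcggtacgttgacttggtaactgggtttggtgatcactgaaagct
No letters are in capitals because the DNA replication-related element DRE (TATCGATA), the E-box CAGCTG and GAGAG were not present in these windows. Within 50 bases of the 16 optimal summits in or nearest to a cuticle protein gene or cluster, none held DRE, CAGCTG or GAGAG on either strand. Over all 8340 summits 2.95% held DRE, 4.14% held CAGCTG and 835 held GAGAG. The letters TATAA, also searched on either strand, stood near 5 of the 16, against 34.5% of all summits.

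Inside gene bodies there were 4 optimal summits. Cpr73D is a long gene of 18590 bp on the minus strand, and held 3 of them. One lay 96 bp and one 480 bp from a TSS of Ogdh, the gene of the 2-oxoglutarate dehydrogenase enzyme, which overlaps Cpr73D, and the last of these had a signal of 501. The third lay in an intron, 1577 bp downstream of a Cpr73D TSS, with a signal of 142. Cpr51A held the other, in an intron and 320 bp from the TSS of CG30197, with a signal of 312.

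The 15 clusters span 240891 bp in total, from 4704 to 38545 bp each. They held 4 optimal summits, which is 16.6 per Mb, against 75.3 per Mb in the 50 kb on each side of them (113 summits in 1.5 Mb) and 60.6 per Mb over the 7 chromosome arms. In 13 of 15 clusters the flanks were denser than the cluster, and 12 clusters had no optimal summit. Many spans are so short that they could hold none at the density of the arms. These 2 counts therefore do not measure a lack of summits cluster by cluster, and span length was not adjusted for. In the strongest peaks of the replicates the spans held 3, 3 and 5 summits, 15.2 ± 4.79 per Mb (SD, n = 3). Leaving out replicate 1, 2 or 3 left 2, 1 or 2 summits in the spans. Per Mb these were 8.30, 4.15 and 8.30, against 46.6, 45.9 and 48.1 over the arms.

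The 4 summits fell in 3 clusters. In the array from Cpr47Ea to Cpr47Eg there were 2, with signals of 323 and 267, 522 and 725 bp upstream of TpnC47D, a troponin C gene that lies between the cuticle genes. The array from Cpr65Ea to Cpr65Ec held the summit upstream of Cpr65Ec shown above, with a signal of 171. That from Cpr67Fa1 to Cpr67Fb held the summit upstream of Cpr67Fb, with a signal of 137. Besides cuticle genes the spans hold 18 other protein coding genes. Of these goe alone had an optimal promoter summit, against 34% of all protein coding genes, a difference that was not tested. The goe summit lay outside the span from TwdlX to Twdlalpha.

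**Figure D4:**
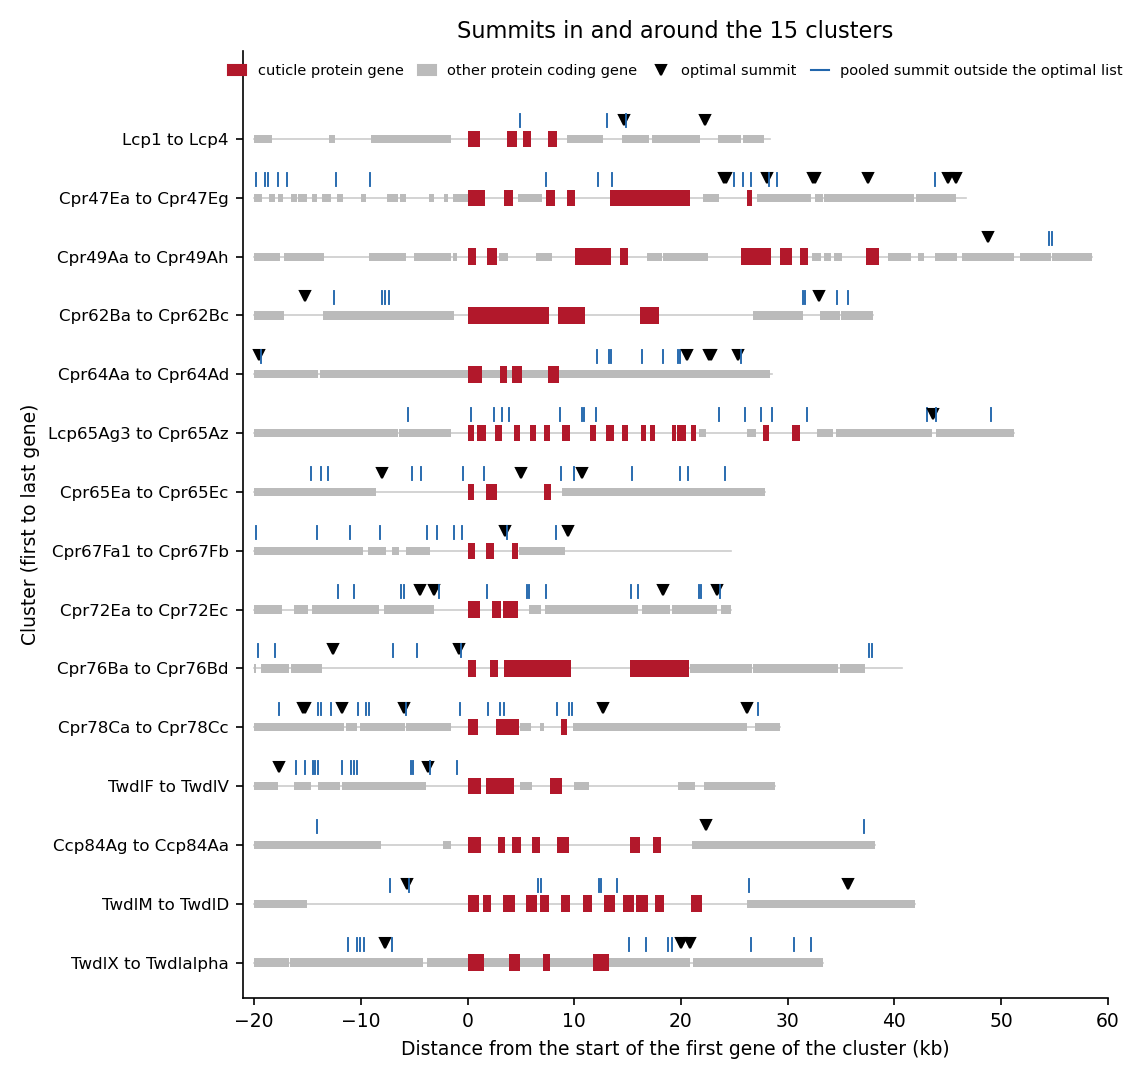
Map of each cluster with 20 kb on either side (horizontal axis, kb from the start of its first gene), with cuticle protein genes in red, other protein coding genes in grey, optimal summits as black triangles and pooled summits outside the optimal list as blue ticks. Of the black triangles 4 lie within a cluster, in 3 of the 15 rows, and 7 rows have no mark of either kind between the first and last red gene.

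The deeper pooled list placed 35 summits in the spans, 145 per Mb, against 218 per Mb over the arms. The full lists of replicates 1, 2 and 3 placed 34, 35 and 39 there. The value per Mb over all spans does not describe each array, because the summits were unevenly spread. The array from Lcp65Ag3 to Cpr65Az, the largest with 17 cuticle genes, held 12 of the 35 in 31204 bp, all outside the optimal list. That from Cpr47Ea to Cpr47Eg held 8 in 26695 bp, and that from Cpr78Ca to Cpr78Cc 4 in 9312 bp. There was no pooled summit in 7 clusters, namely Cpr49Aa to Cpr49Ah, Cpr62Ba to Cpr62Bc, Cpr64Aa to Cpr64Ad, Cpr76Ba to Cpr76Bd, TwdlF to TwdlV, Ccp84Ag to Ccp84Aa and TwdlX to Twdlalpha. The array from TwdlM to TwdlD, with 12 Tweedle genes, held 5.

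Each cluster touches a long stretch without an optimal summit. The longest such stretch at each cluster ran from 13104 to 193047 bp, where the genome's median gap between summits was 5415.5 bp. In 10 of 15 clusters it exceeded 36462 bp, the 90th percentile of all gaps. The gap over Lcp1 to Lcp4 was 193047 bp, that over Cpr49Aa to Cpr49Ah 87640 bp, and that over Lcp65Ag3 to Cpr65Az 79220 bp. A long region meets long gaps more often than a short one, and this was not adjusted for.

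Apart from goe, which overlaps the TwdlX to Twdlalpha array, the nearest gene with an optimal promoter summit was taken on each side of each array, by the edge of its gene body. Distances given here run from the end of the array to that gene's promoter summit. They ran from 1345 to 192696 bp, with a median of 22363.5 bp over 30 sides. In 2 of 15 arrays, Cpr72Ea to Cpr72Ec and Cpr78Ca to Cpr78Cc, such a summit lay within 20 kb on each side. The first had ringer, a regulator of microtubules, at 3183 bp and Agpat4 at 13602 bp. The second had pzg at 5956 bp with a signal of 572 and CG11309 at 3408 bp with a signal of 1922. The Cpr47Ea to Cpr47Eg array had CG9067 at 1345 bp and CG7737 at 28997 bp, the last with a signal of 2180. The Cpr67Fa1 to Cpr67Fb array had the promoter summit of Aps at 4711 bp, although the Aps gene body begins 82 bp from the array, and tna at 32068 bp.

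For other arrays at least one of these summits was farther off. The Lcp65Ag3 to Cpr65Az array had fmt at 12454 bp and loj at 35563 bp, and Cpr65Ea to Cpr65Ec had CG8641 at 8058 bp and Acbp2 at 39080 bp. The Ccp84Ag to Ccp84Aa array had twr at 29230 bp on one side and bcd, the gene of the anterior morphogen Bicoid, at 54752 bp on the other. The Tweedle array from TwdlM to TwdlD had scrib, a cell polarity gene, at 50764 bp and amon, a prohormone convertase gene with a signal of 3596, at 73328 bp. The array from TwdlF to TwdlV had CG34305 at 3682 bp and Suv3 at 55648 bp. That from TwdlX to Twdlalpha had the summit of goe at 7594 bp, and beyond it those of if, an integrin gene, at 36932 bp and Septin4 at 43116 bp. Lcp1 to Lcp4 had Cyp4e2 at 6261 bp and pnut, a septin gene, at 192696 bp. Cpr49Aa to Cpr49Ah had Dera at 10244 bp and Den1 at 38852 bp, and Cpr62Ba to Cpr62Bc had CG12024 at 14956 bp and CG42676 at 21161 bp. Cpr64Aa to Cpr64Ad had tipE at 19537 bp and Sqor at 23566 bp, and Cpr76Ba to Cpr76Bd had CG9449 at 20577 bp and CG9231 at 47869 bp.

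The genes next to cuticle protein genes had promoter summits more often than the cuticle genes and less often than genes at large. Taking the nearest gene outside the families on each side, 24 of 105 had one, 22.9%, where the background is 34%. The share was 20% for the neighbours of clustered genes (9 of 45) and 24.6% for those of lone genes (15 of 61), and a gene can be counted in both. These differences were not tested.

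Cuticle protein genes are short and simple, and such genes had promoter summits less often in general. Their median length was 983 bp, against 2164.5 bp for all genes, and 107 of 117 (91.5%) had 1 annotated TSS, against 73.5%. Among all genes with 1 TSS 27.3% had an optimal promoter summit, and among those with 2 or more 52.5%. Among genes with 1 TSS and a length of at most 2000 bp, 95 of them cuticle protein genes, it was 1 of 95 for the cuticle genes and 21.1% for all 5805. The share of cuticle genes was thus also lower than that of genes of like size and structure, a difference that was not tested.

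Near-identical copies can lose reads in mapping, so the 31-base words of each promoter window were counted in the genome. In 97 of 117 cuticle protein genes at least 95% of these words occurred once, and of these 1 had an optimal promoter summit, against 35.3% of all such genes. In the other 20 genes, where reads may be split between copies, 0 had one, against 10.1% of the 745 such genes. With 20 genes, a count of 0 cannot be told from that share. Lcp65Ab1 and Lcp65Ab2 were the least unique, with 9.58% of words occurring once, so the absence of summits there is uncertain. The labels do not say how the authors treated reads that map to several places.

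The promoters themselves had a common make-up. The letters TATAA, the core of the TATA box that places the transcription start, stood 45 to 15 bases before the gene's 5′ end on its own strand in 80 of 117 cuticle protein genes, 68.4%, against 12.5% of all genes. By family these were 46 of 70 Cpr genes, 11 of 15 Lcp genes, 6 of 7 Ccp84 genes and 17 of 25 Twdl genes. Among all genes, TATAA was found in 5.06% of those with an optimal promoter summit and in 16.4% of those without. Seen the other way, 13.7% of genes with TATAA had a promoter summit, against 36.9% of those without TATAA. The DRE (TATCGATA on either strand from 250 bases before to 50 after the 5′ end) was found in 1 cuticle protein gene, Cpr49Af (0.855%), against 9.36% of all genes. It was found in 16.2% of genes with an optimal promoter summit and in 5.83% of those without.

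The other motifs differed less. The initiator letters TCAGT within 10 bases of the 5′ end were found in 13.7% of cuticle protein genes and 12.2% of all genes. The E-box CAGCTG was found in 10.3% of cuticle protein genes and 17.7% of all genes, and GAGAG in 30.8% of cuticle protein genes and 29.8% of all genes. TATCGATA reads the same on both strands, as does CAGCTG. A match is a description of letters in a window. Neither a match nor its absence shows whether a factor binds there.

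**Figure D5:**
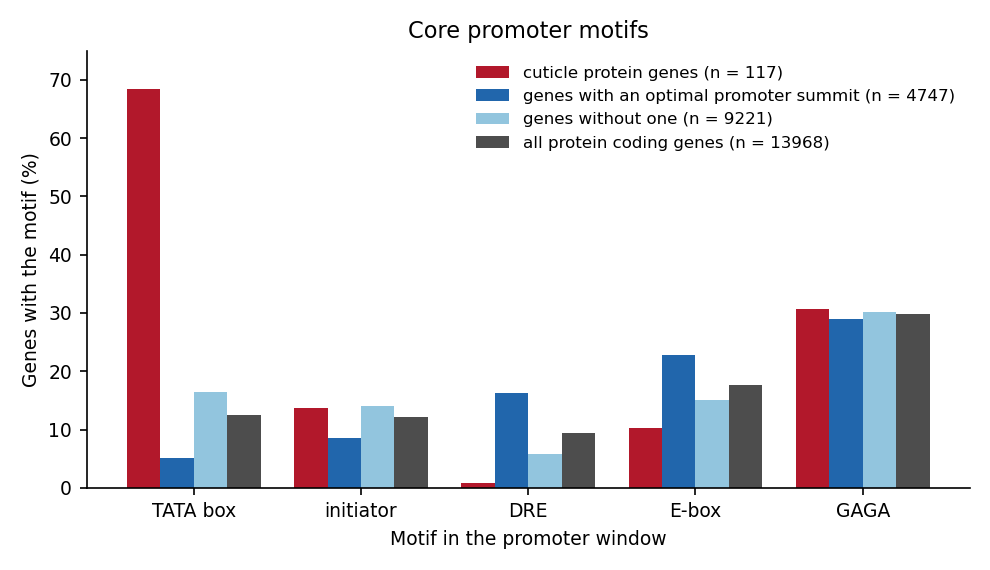
Share of genes with each motif in the promoter window (vertical axis, %), for the cuticle protein genes, genes with an optimal promoter summit, genes without one and all protein coding genes. The TATA box bar of the cuticle protein genes stands at 68.4%, against 5.06% for genes with a promoter summit, and their DRE bar stands at 0.855%.

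Core promoters from 50 bases before to 20 after the 5′ end, read 5′ to 3′ on the gene's strand, show the layout, with TATAA or TCAGT in capitals where each lies in its own window. Cpr78Cc (chr3L:21300530-21300600), Cpr78Cb (chr3L:21294442-21294512), TwdlN (chr3R:26631819-26631889) and Cpr67Fb (chr3L:10894123-10894193) are among the 5 with the strongest pooled signal. Cpr62Ba (chr3L:1831763-1831833, minus strand), Cpr64Aa (chr3L:4209158-4209228, minus strand), Cpr76Ba (chr3L:19518312-19518382, minus strand), TwdlF (chr3R:4246970-4247040), Ccp84Ag (chr3R:6686678-6686748) and TwdlX (chrX:16731041-16731111) begin arrays without a pooled summit.
Cpr78Cc: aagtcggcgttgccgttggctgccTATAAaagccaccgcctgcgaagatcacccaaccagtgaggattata
Cpr78Cb: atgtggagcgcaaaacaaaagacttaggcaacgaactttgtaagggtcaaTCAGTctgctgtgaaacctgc
TwdlN: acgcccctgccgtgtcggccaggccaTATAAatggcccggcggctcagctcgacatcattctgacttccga
Cpr67Fb: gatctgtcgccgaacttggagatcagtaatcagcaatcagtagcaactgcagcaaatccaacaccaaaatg
Cpr62Ba: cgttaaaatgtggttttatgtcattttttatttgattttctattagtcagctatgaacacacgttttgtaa
Cpr64Aa: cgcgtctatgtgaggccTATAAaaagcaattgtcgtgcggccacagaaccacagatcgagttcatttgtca
Cpr76Ba: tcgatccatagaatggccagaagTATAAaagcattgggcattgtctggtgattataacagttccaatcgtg
TwdlF: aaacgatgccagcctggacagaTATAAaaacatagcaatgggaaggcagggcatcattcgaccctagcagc
Ccp84Ag: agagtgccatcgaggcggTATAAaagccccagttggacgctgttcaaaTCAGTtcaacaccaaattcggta
TwdlX: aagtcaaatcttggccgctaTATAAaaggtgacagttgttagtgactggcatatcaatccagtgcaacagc
The TATA letters are present in 7 of these 10, Cpr78Cc and TwdlN with a weak pooled summit nearby and the other 5 in arrays with none. Cpr78Cb has TCAGT alone, and its pooled summit is nearest to its other TSS, inside the gene. Cpr67Fb and Cpr62Ba have neither motif in its window.

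Other genes of the cuticle were counted by the same rule. Of 8 other structural cuticle protein genes (Acp1, Acp65Aa, Edg78E, Edg84A, Edg91, Pcp, resilin and l(3)mbn) 0 had an optimal promoter summit, which allows a share of up to 37.5% by the limit of 3 counts and 36.9% by the exact 95% interval, beside the 34% background. The nearest was resilin, the gene of the elastic cuticle protein, at 1746 bp, and Acp65Aa and Edg78E lie inside the 65A and 78C arrays. Genes that make and shape chitin had one in 7 of 27 cases, 25.9%, with 24.7% ± 4.28 over the replicates (SD, n = 3). They included Gfat2 and Gnpnat, enzymes on the route to the chitin precursor, with signals of 278 and 276, the chitinase gene Cht7 with 557 and Idgf6 with 395. Among those without one were the chitin deacetylase genes Cda4, Cda5 and Cda9. Genes of tanning, which hardens and colours cuticle, had one in 3 of 12 cases, 25%, with 22.2% ± 4.81 over the replicates. These were Pu with a signal of 306, speck with 215 and t with 151, and amd, b and Ddc had none.

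Genes of hormone response and other regulators of cuticle genes were bound at the promoter in 6 of 15 cases, 40%, with 31.1% ± 3.85 over the replicates. The strongest were Eip75B, an ecdysone-induced nuclear receptor gene, with a signal of 1003, and usp, the partner of the ecdysone receptor, with 528. The nuclear receptor genes ftz-f1 and Hr39 had 179 and 144, and Blimp-1, br and Eip74EF had none. These shares lie near the 34% background, and lists of this size leave wide counting error. Whether the lists differ from one another was not tested.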

How the data were processed

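ChIP-seq peak lists of 3 replicates (1 group) in build dm6 were used, with the pooled and optimal lists. The dm3 lists, the reads and the control were not analysed here. Per the labels, background is kept in the replicate and pooled lists. For aligner and peak caller, versions and settings were not given in the sources used here. Each peak carries the authors' deposited signal value, −log10 q value and summit offset from its start. Depth per sample is unknown. Ranks follow the signal within a list. Genes and TSSs came from the Ensembl release 115 annotation and sequence from the RefSeq release 6 assembly, read in Python 3.11.15 with NumPy 2.4.6 and pandas 2.3.3. Exact binomial intervals came from SciPy 1.17.1. Summits within 100 bp counted as the same. Counting was tested on simulated data. Members, lists, motifs and tests were chosen with earlier results of these data known. Named genes follow a rule: genes with summits, the 5 strongest in the pooled list, the 5 nearest and 3 farthest unbound genes, array ends, their bound neighbours, and up to 4 bound and 3 unbound genes per list. Of the list symbols, Cpfl1, nag, AGM, dp, Lac-A and Dat were not found in the annotation. Alternatives changed the window, the TSSs, the cluster gap, the peak set and the replicates.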

Additional observations from a re-analysis of the deposited data

How the results depend on the processing

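The count of cuticle protein genes with an optimal promoter summit, 1, became 0 with a 200 bp window, 3 with 1000 bp and 2 when the peak had only to overlap the window. It was 0 in the upper part of the list by signal (4170 peaks), 0 in the peaks found in all 3 replicates (5869), 0 to 0 with a replicate left out, and 0 where the nearest TSS had to be a cuticle protein gene's, which was chosen after seeing the data. For all genes the share ran from 21.8% to 38.1% under the settings fixed at the start. The median distance of 13229 bp became 21012 bp in the upper part, 18339 bp in the peaks of all 3 replicates and 16043 to 16835 bp with a replicate left out. For all genes these medians were 6736, 4506 and 3878 to 4128 bp. The 4 summits in the cluster spans became 2 in the upper part, 1 in the peaks of all 3 replicates and 1 to 2 with a replicate left out. Per Mb these were 8.30, 4.15 and 4.15 to 8.30, against 30.3, 42.7 and 45.9 to 48.1 over the arms. These settings keep fewer peaks by construction. The pooled count of 22 became 8 with 200 bp, 35 with 1000 bp and 7 in the upper part of the pooled list (15000 peaks). In these settings the shares were 6.84%, 29.9% and 5.98% for cuticle protein genes, and 43.5%, 60.9% and 44.6% for all genes. Other alternatives, 2, 1, 3 and 4 of them for the 4 results, moved a count by no more than 1.5 times and left the median at 13229 bp. No paired analysis was possible because there is 1 group. The lists carry no depth or control values, so a weak site cannot be told from background, and the optimal list itself always came from all 3 replicates.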

Other observations

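Genes named after matrix and mucin families were described as well, because they code for other secreted chitin-bound or extracellular matrix proteins. The prefixes Muc, Vajk, obst and Peritrophin found 28 genes, of which 0 had an optimal promoter summit, against 34% of all protein coding genes, and 0 had one in the strongest peaks of any replicate. A count of 0 of 28 allows a share of up to 10.7% by the limit of 3 counts and 12.3% by the exact 95% interval, and the difference was not tested. The nearest was Muc68Ca, 817 bp from an optimal summit, and the farthest Vajk3, at 41888 bp. The first in alphabetical order, Muc11A, Muc12Ea and Muc14A, lay 14010, 30159 and 3293 bp from one. The genes obst-A and obst-E are also counted among the genes that make and shape chitin.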
